A study of Mus musculus with 6 samples.

Results

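The 98 genes described here belong to the families whose proteins form epithelial junctions, and some members serve in endothelium, heart, mesenchyme or nerve cells instead. They were the protein-coding rows, of 31130 rows in the gene tables, whose symbols matched a fixed pattern of junction gene names. The pattern took 101 genes, and Cdh5, Cldn4 and Cldn5 were then left out. By symbol, 27 genes belonged to tight junctions, 38 to adherens junctions together with the lateral adhesion molecules Epcam and Cadm, 15 to desmosomes and 18 to gap junctions.

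Tumor RNA was compared between 2 mouse models with 3 tumors each. The IP + LC model combined interstitial pneumonia (IP) with lung cancer (LC): female wild-type C57BL/6 mice, 6 to 8 weeks old, were given bleomycin, a drug that injures and scars the lung, at 2.0 mg/kg by oropharyngeal aspiration on day 0. The LC model received no bleomycin. In both models the left lung was injected on day 14 with 500000 LLC cells, a line established from a Lewis lung carcinoma of C57BL/6 mice, and tumor tissue was taken on day 21. The labels name the cell type as lung cancer cells, yet every tumor also held transcripts of host lung: Sftpc, a surfactant gene of type 2 alveolar cells, was between 23608 and 29459 CPM, UMI counts scaled to the library total after TMM normalization, in the LC tumors and between 4259 and 7885 CPM in the IP + LC tumors. Nothing in the labels says which mouse a tumor came from, so the p-values below measure the spread between these 6 samples.

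Tight junctions seal the space between epithelial cells through claudins and occludin, which scaffold proteins tie to the actin cytoskeleton. Adherens junctions join neighbors through cadherins and nectins, whose tails bind catenins and afadin, while desmosomes rivet cells together through desmosomal cadherins linked to keratin filaments by plakoglobin, plakophilins and desmoplakin. Gap junctions are channels made of connexins that let ions and small molecules pass between cells. In the lung these complexes maintain the barrier of airways and alveoli, and other tissues use many of the same genes: endothelium has its own connexins, and cardiac muscle has desmosomal proteins.

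Transcripts were counted by unique molecular identifiers (UMIs) after priming at the poly(A) tail. Total UMIs were 592733, 1379759 and 1356381 in LC replicates 1 to 3 and ranged from 1336919 to 1631066 in the IP + LC tumors, so that 3 UMIs, the lower limit used for a level, stood for 5.09 CPM in LC replicate 1 and for 1.72 to 2.44 CPM in the other tumors. LC replicate 1 stood apart from the other tumors of its model: across genes, its log-scale expression correlated with LC replicates 2 and 3 at r of 0.840 and 0.800, compared with 0.962 between those 2 tumors and 0.968 to 0.973 among the IP + LC tumors. With the IP + LC tumors LC replicate 1 correlated at 0.796 to 0.822, about as closely as with LC replicate 3. The summed level of 6 proliferation genes was 506 CPM in LC replicate 1, 106 and 97.7 CPM in the other LC tumors, and 872 to 1005 CPM in the IP + LC tumors. Results are therefore also given without LC replicate 1 where that changes them.

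Most of the measurable junction genes were lower in the IP + LC model. The 98 genes together held 0.239%, 0.322% and 0.381% of the UMIs of the LC tumors and 0.202%, 0.195% and 0.225% of those of the IP + LC tumors. Their summed level was 2408, 3399 and 4214 CPM in the LC tumors and 1938, 1821 and 2148 CPM in the IP + LC tumors, where the mean was 59.0% of that of the LC model. All 3 IP + LC tumors lay below all 3 LC tumors in this sum. The summed level was 53.2% of the LC mean for tight junction genes, 60.1% for adherens junction genes and 44.2% for desmosome genes. The desmosome value rested on Jup: the other 14 genes summed to 70.5%. Without Jup the models overlapped, with 100.1, 139.9 and 180.8 CPM in LC and 95.5, 95.7 and 105.6 CPM in IP + LC. Gap junction genes summed to 118% of the LC mean, and there the tumors of the models overlapped, with 117, 241 and 249 CPM in LC and 276, 219 and 222 CPM in IP + LC. Against the mean of LC replicates 2 and 3 alone their sum in IP + LC was 97.5%, so its direction rested on LC replicate 1.

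Of the 98 genes, 95 had at least 1 UMI in some tumor, and Gje1, Cldn16 and Cldn20 had none. The filter on low counts left 36 genes to test, of which 29 reached its level of 7.41 CPM in all tumors of both models, 6 in all tumors of LC but not of IP + LC (Cldn10, Cldn15, Dsp, Gja5, Nectin4 and Tjp3) and Pkp3 in all tumors of IP + LC but not of LC. The counts that follow describe the tested genes, not all 98. A gene was called at an adjusted p-value below 0.1, the limit the study used, in the quasi-likelihood test of edgeR, with p-values adjusted by the Benjamini-Hochberg method over all tested genes. In IP + LC, 21 of the 36 were downregulated, 1 was upregulated and 14 were not called, with a median log2 fold change of -0.84 against 0.02 over all genes tested. The comparison as a whole was broad: 36.4% of 11240 tested genes were called, 19.6% lower and 16.8% higher in IP + LC. The junction genes were called lower in 58.3% of cases and higher in 2.78%. The 6 genes that reached the filter level in the LC tumors alone were all called lower, and they could pass only by being high there. Of the 29 that reached it in all tumors of both models, 15 (51.7%) were called lower and 1 higher, compared with 17.6% and 16.2% of the 8557 genes of the whole table that did so. When libraries were scaled by their size only, instead of by TMM, the median of all genes moved by 0.16 on the log2 scale, and the share of calls that were higher rose from 46.1% to 58.3%. Under that scaling 19 junction genes were called lower and 2 higher.

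The tumors of the models did not overlap in 18 junction genes that were lower in IP + LC and in 2 that were higher, Gja1 and Cldn12. Among all tested genes 21.2% were lower and 21.9% higher with no overlap. Without LC replicate 1, 40 junction genes passed the filter and 35 of them were called, 34 lower and 1 higher, while the share of all tested genes called rose to 57.0%. Leaving out IP + LC replicate 1 or 2 reduced the calls to 11 and 13 of 41 tested, while 22.6% and 19.2% of all tested genes were called. The plot of fold changes by junction type shows where 35 of the 36 genes lay.

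**Figure D1:**
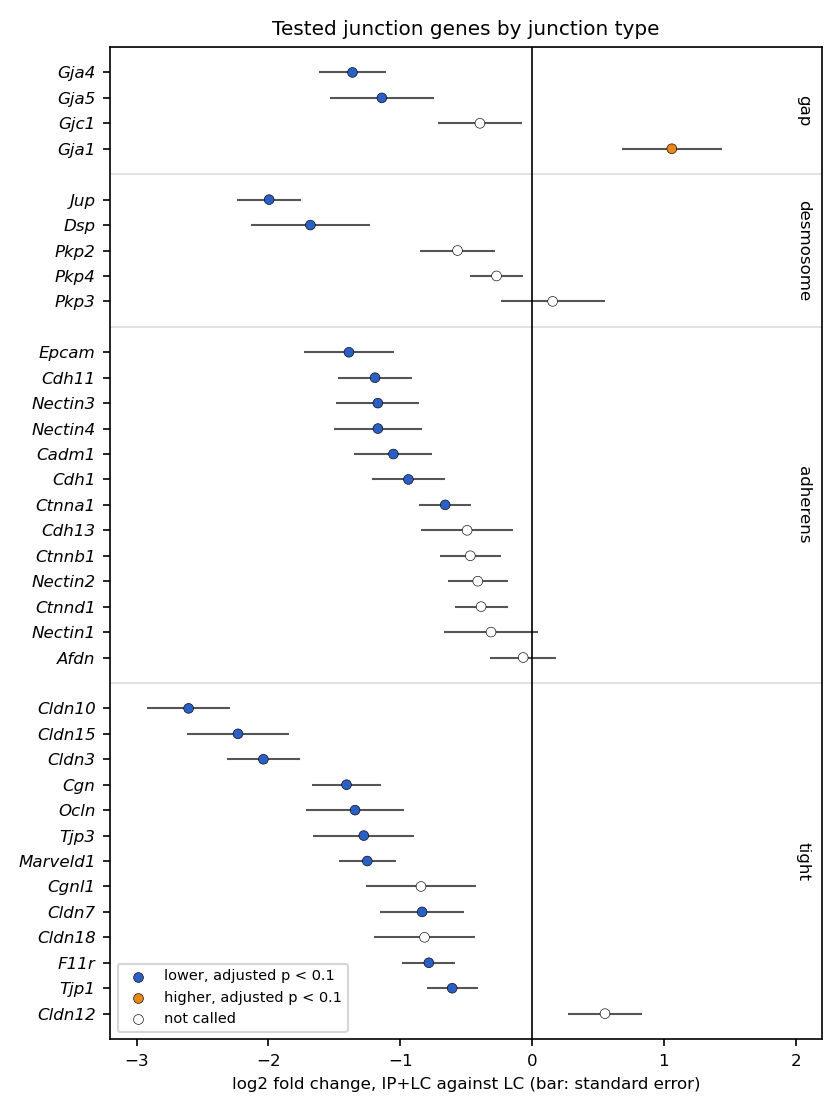
Fitted log2 fold change of 35 tested junction genes, IP + LC against LC (x axis), with 1 gene per line grouped by junction type and bars for the standard error (3 tumors per model). Points left of the line were lower in IP + LC; 21 filled blue points were called lower, Gja1 in orange was the single gene called higher, and the 13 white points were not called.

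Markers of the other cells in the tissue moved with these genes. Summed markers of type 2 alveolar cells were at 22.6% of the LC mean in the IP + LC tumors, those of type 1 alveolar cells at 31.3%, of airway epithelium at 10.8%, of mesothelium at 36.1%, of endothelium at 24.5%, of smooth muscle at 27.7% and of cardiac muscle at 18.7%. In each of these 7 lists the 3 IP + LC tumors lay below the 3 LC tumors, and of the 45 markers tested 43 were called lower. Fibroblast markers summed to 97.0% of the LC mean and leukocyte markers to 94.5%, with tumors of both models overlapping. These sums held members that moved in opposite directions: 4 fibroblast markers fell, among them Dcn by 2.11 on the log2 scale (adjusted p = 0.00165), while Col1a1 and Col1a2 rose by 1.42 and 0.67, and among leukocyte markers S100a8 (-2.39) and Cd79a (-1.55) fell while Itgam (1.24) and Adgre1 (0.74) rose. Proliferation genes summed to 397% of the LC mean, and to 921% of the mean of LC replicates 2 and 3. No gene of these lists was at 0 in all 3 IP + LC tumors, but in the cardiac muscle list Nppa had 0, 0 and 2 UMIs there (0, 3 and 0 in LC) and Ryr2 6, 0 and 4 (4, 21 and 42 in LC). Fewer cells of a type and less RNA per cell cannot be told apart in bulk tumor RNA, and the part of these cells in the junction results was not tested.

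**Figure D2:**
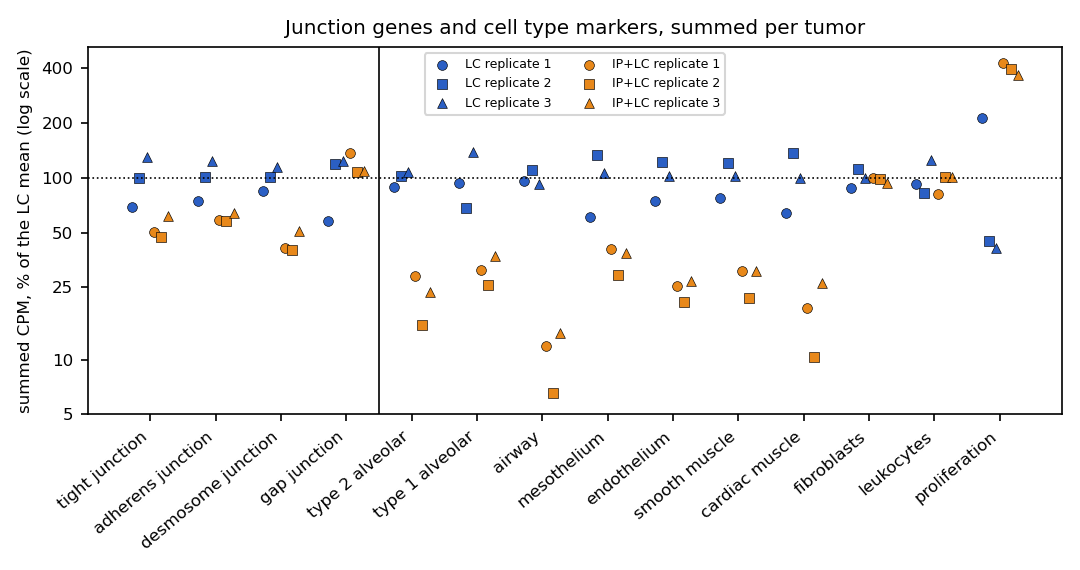
Summed CPM of the 4 junction types (left of the vertical line) and of 10 marker lists (right) in each tumor, as a percentage of the LC mean on a log scale. Blue points are LC and orange points IP + LC tumors, with a symbol per replicate; tight, adherens and desmosome genes fell less than the lung epithelial, endothelial and muscle markers, and gap junction genes overlapped between the models.

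Tight junction genes were mostly lower in IP + LC. Of 27 genes 25 had UMIs and 14 were tested, and 10 were downregulated in IP + LC, none upregulated, with a median log2 fold change of -1.05. Among these 10, Cldn10, Cldn15 and Tjp3 could pass the filter only by being high in LC. The largest falls were in claudins, the membrane proteins that set which ions pass between cells. Cldn10, a claudin that forms ion-selective pores (chr14:118787908-118875489, plus strand, GRCm38), was at 45.8, 76.4 and 60.3 CPM in the LC tumors and at 11.4, 6.30 and 13.6 CPM in the IP + LC tumors. Every IP + LC tumor was below every LC tumor, and the mean was 6.08-fold lower by the fit (log2 fold change -2.61 ± 0.32 SE, adjusted p = 0.0012). Cldn15, another pore-forming claudin, was at 11.9, 22.9 and 16.3 CPM in LC and at 4.28, 2.86 and 4.28 CPM in IP + LC (log2 fold change -2.23 ± 0.38 SE, adjusted p = 0.00408). Its IP + LC levels stand for 6, 5 and 6 UMIs, so this fold change rests on few molecules. Cldn3, a barrier claudin of airway and alveolar epithelium (chr5:134986214-134987472, plus strand), was at 131, 154 and 118 CPM in LC and at 37.1, 21.2 and 41.4 CPM in IP + LC, again without overlap (log2 fold change -2.04 ± 0.27 SE, adjusted p = 0.00154).

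Cldn18, the claudin typical of alveolar epithelium (chr9:99689461-99717267, minus strand), behaved differently. It was at 297, 474 and 917 CPM in the LC tumors and at 280.0, 287 and 408 CPM in the IP + LC tumors. LC replicate 1 was close to the IP + LC tumors and the models overlapped, with a log2 fold change of -0.82 ± 0.39 (SE) that was not called (adjusted p = 0.150). In the fit that left out LC replicate 1 the estimate was -1.11 and the gene was called (adjusted p = 0.000803), and in the fit that left out LC replicate 3 it was -0.27 (adjusted p = 0.551). The shares of single claudins depended on whether Cldn4 and Cldn5, which are not among the 98 genes, were counted in the total. Of the UMIs of the claudins described here, Cldn18 made up 53.9%, 59.7% and 76.1% in LC and 71.6%, 79.4% and 79.9% in IP + LC, which overlapped. With Cldn4 and Cldn5 in the total it made up 33.7%, 35.8% and 56.9% in LC and 58.8%, 63.7% and 65.7% in IP + LC, which did not, although the gap between 56.9% (95% Wilson interval 54.7 to 59.1%) and 58.8% (55.1 to 62.5%) was within counting error. Cldn10 held a lower share in every IP + LC tumor under both totals, with 8.31%, 9.63% and 5.0% in LC and 2.91%, 1.74% and 2.65% in IP + LC when Cldn4 and Cldn5 were left out. The Wilson intervals of LC replicate 3 (4.0 to 6.23%) and IP + LC replicate 1 (1.80 to 4.68%) overlapped, as they did with Cldn4 and Cldn5 counted. Cldn7, an epithelial claudin of the basolateral membrane, was downregulated by a smaller amount (log2 fold change -0.83, adjusted p = 0.0806), from 42.7 ± 12.1 CPM to 24.6 ± 8.07 CPM (SD, n = 3). Cldn12 had a positive estimate: it was at 11.9, 10.7 and 11.4 CPM in LC and at 19.2, 16.6 and 14.3 CPM in IP + LC without overlap, but was not called (log2 fold change 0.55, adjusted p = 0.179).

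The other membrane proteins and the scaffolds mostly fell as well. Ocln encodes occludin and went from 15.3, 32.1 and 44.0 CPM in LC to 9.98, 12.6 and 15.7 CPM in IP + LC (log2 fold change -1.34, adjusted p = 0.0271), with LC replicate 1 below the highest IP + LC tumor. Marveld1, of the same four-span membrane family, went from 79.0 ± 11.7 to 33.7 ± 4.63 CPM (SD, n = 3; log2 fold change -1.25, adjusted p = 0.00408). F11r encodes a junctional adhesion molecule of the immunoglobulin family and went from 171 ± 14.5 to 101 ± 14.4 CPM (SD, n = 3; log2 fold change -0.78, adjusted p = 0.021). Among the scaffolds that link these proteins to actin, Cgn (cingulin) fell from 46.3 ± 13.3 to 18.2 ± 1.85 CPM (SD, n = 3; log2 fold change -1.41, adjusted p = 0.00583). Tjp1 and Tjp3, zonula occludens proteins, had log2 fold changes of -0.61 (adjusted p = 0.0463) and -1.28 (adjusted p = 0.0365). Cgnl1, the cingulin paralog, was at 20.4, 58.8 and 85.5 CPM in LC and at 30.6, 25.2 and 42.1 CPM in IP + LC and was not called (log2 fold change -0.84, adjusted p = 0.166). LC replicate 1 was the lowest of all tumors, and without it the gene was called (log2 fold change -1.16, adjusted p = 0.000631), whereas the estimate was -0.43 (adjusted p = 0.503) without LC replicate 3. The calls of Cldn3, Cldn10, Cldn15, Cgn and Marveld1 held with each tumor left out in turn. Ocln lost its call without LC replicate 3, IP + LC replicate 1 or IP + LC replicate 2, F11r without IP + LC replicate 1 or 2, Cldn7 without LC replicate 3 or IP + LC replicate 2 or 3, Tjp3 without LC replicate 2 or IP + LC replicate 1 or 2, and Tjp1 without any of the tumors other than LC replicate 1. The adjusted p-value over the alternatives reached 0.112 for Ocln, 0.114 for F11r, 0.291 for Cldn7, 0.199 for Tjp3 and 0.290 for Tjp1.

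**Figure D3:**
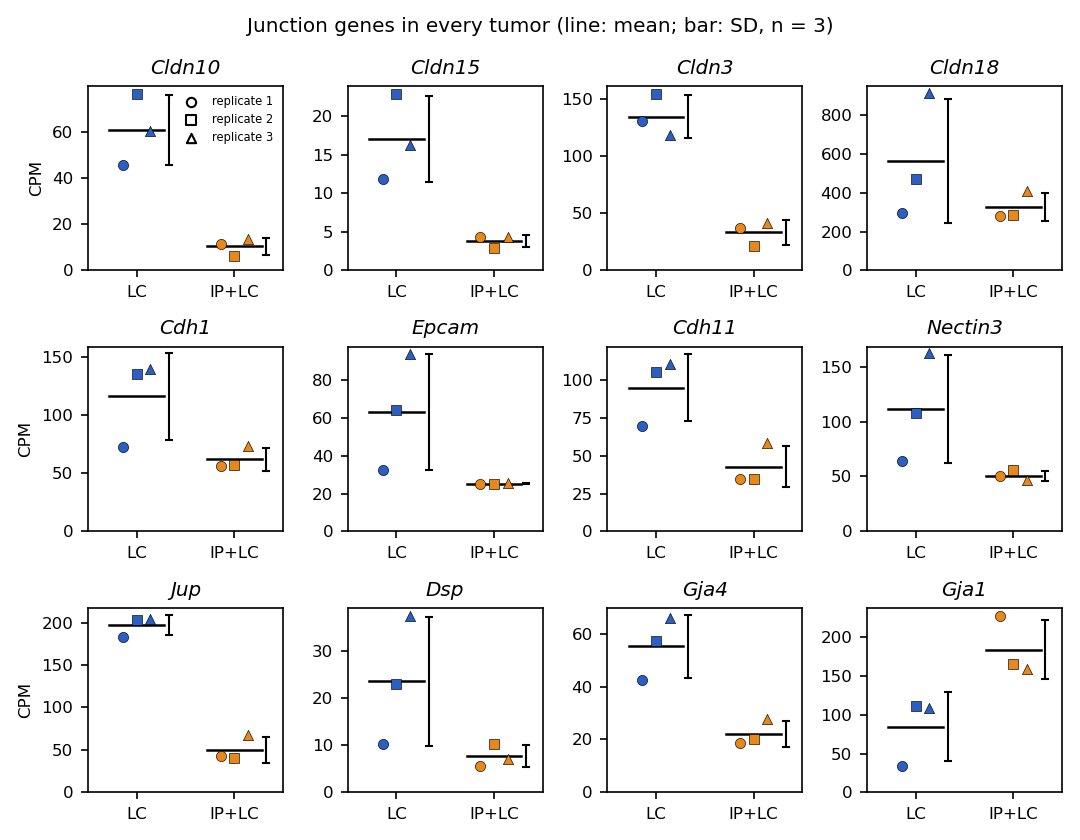
CPM (y axis, linear and starting at 0) of 12 junction genes in every tumor, LC in blue and IP + LC in orange, with a symbol per replicate, a line at the mean and a bar for the SD of 3 tumors. Cldn10, Cldn15, Cldn3, Jup and Gja4 were lower in each IP + LC tumor than in any LC tumor, Gja1 was higher, and in Cldn18, Cdh1 and Dsp LC replicate 1 lay within the range of the IP + LC tumors.

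Among adherens junction genes, all 38 had UMIs and 13 were tested, of which 7 were downregulated and none upregulated, with a median log2 fold change of -0.66. Of these 7, Nectin4 could pass the filter only by being high in LC. The calls fell among the membrane adhesion molecules and the actin link, while most of the catenins and afadin were not called. Cdh1 encodes E-cadherin, the classical cadherin of epithelia (chr8:106603351-106670246, plus strand), and was at 73.0, 135 and 140.1 CPM in the LC tumors and at 56.3, 56.7 and 73.5 CPM in the IP + LC tumors. LC replicate 1 was just below the highest IP + LC tumor, and the gene was called lower (log2 fold change -0.94 ± 0.28 SE, adjusted p = 0.0344). Leaving out LC replicate 1 gave an estimate of -1.16 (adjusted p = 3.05e-05). The call was lost without LC replicate 2 or 3 or without IP + LC replicate 1 or 2, with an adjusted p-value of up to 0.154.

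Loss of E-cadherin with gain of N-cadherin is the classical cadherin switch of epithelial-mesenchymal transition (EMT). Cdh2, the N-cadherin gene, did not pass the filter, with 1, 5 and 3 UMIs in LC and 1, 2 and 2 UMIs in IP + LC. It was not called in the fit with no filter either (adjusted p = 0.542), and a change in it was not detectable at this depth. Cdh11, a cadherin of mesenchymal cells, was at 69.6, 105 and 111 CPM in LC and at 34.9, 34.9 and 58.5 CPM in IP + LC, without overlap (log2 fold change -1.19, adjusted p = 0.0153). Of the UMIs of the Cdh genes described here, which leave out Cdh5, Cdh1 held 39.1%, 41.2% and 35.7% in LC and 38.9%, 42.9% and 41.2% in IP + LC, which overlapped. With Cdh5, the cadherin of endothelium, in the total, Cdh1 held 24.3%, 21.8% and 21.6% in LC and 25%, 27.0% and 27.2% in IP + LC, where the values did not overlap but the gap between 24.3% (95% Wilson interval 18.6 to 31.1%) and 25% (20.6 to 30.1%) was within counting error. The share of Cdh11 overlapped under both totals. Cdh13, a cadherin held in the membrane by a lipid anchor, was not called (log2 fold change -0.49, adjusted p = 0.327), but was called without LC replicate 1 (log2 fold change -0.75, adjusted p = 0.017). The estimate was -0.28 without LC replicate 2 and -0.23 without IP + LC replicate 2, and neither was called.

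Epcam encodes an epithelial adhesion molecule that is widely used to mark epithelial cells (chr17:87635979-87651129, plus strand). It was at 32.2, 64.2 and 93.7 CPM in LC and at 24.9, 25.2 and 25.7 CPM in IP + LC. The IP + LC tumors were within 1 CPM of each other and below every LC tumor, and the gene was called lower in the comparison of all 6 tumors and with each of them left out (log2 fold change -1.39 ± 0.34 SE, adjusted p = 0.0171). Among the nectins, immunoglobulin-like molecules that start cell contacts, Nectin3 went from 64.5, 108 and 162 CPM to 50.6, 55.6 and 46.4 CPM (log2 fold change -1.17, adjusted p = 0.0248) and Nectin4 from 22.1, 16.8 and 12.2 CPM to 7.13, 6.30 and 8.56 CPM (log2 fold change -1.17, adjusted p = 0.031). Nectin1 and Nectin2 were not called, with log2 fold changes of -0.31 and -0.41. Cadm1, a related adhesion molecule, fell from 161 ± 63.4 to 79.3 ± 4.16 CPM (SD, n = 3; log2 fold change -1.05, adjusted p = 0.0291). Inside the cell, Ctnna1, whose product ties the cadherin complex to actin, fell from 312 ± 31.3 to 199.7 ± 22.2 CPM (SD, n = 3; log2 fold change -0.66, adjusted p = 0.0367).

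Ctnnb1, which encodes beta-catenin, was at 28.8, 30.6 and 35.8 CPM in LC and at 21.4, 21.2 and 27.8 CPM in IP + LC. These values did not overlap, yet the difference was not called (log2 fold change -0.47 ± 0.23 SE, adjusted p = 0.164). Ctnnd1, which encodes the catenin that keeps cadherins at the membrane, was not called (log2 fold change -0.39, adjusted p = 0.187), and 61.2% of its exon bases overlap another gene on the same strand, so its counts are uncertain. Afdn, the afadin gene that joins nectins to actin, was at 66.2, 104 and 121 CPM in LC and at 108, 90.0 and 87.0 CPM in IP + LC (log2 fold change -0.07 ± 0.25 SE, adjusted p = 0.872). Its interval reaches both directions, and the sign turned with the scaling and with single tumors left out. Ctnnb1 (log2 fold change -0.51, adjusted p = 0.0795) and Ctnnd1 (log2 fold change -0.50, adjusted p = 0.00911) were also called in the fit that left out LC replicate 1. The calls of Nectin3, Nectin4, Cadm1 and Ctnna1 were each lost without IP + LC replicate 1 and without at least 1 other tumor among LC replicate 2 and IP + LC replicates 2 and 3, with adjusted p-values of up to 0.103, 0.143, 0.120 and 0.210 over the alternatives.

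Of the 15 desmosome genes all had UMIs, 5 were tested and 2 were downregulated, with a median log2 fold change of -0.57. Dsp could pass the filter only by being high in LC, and Pkp3 only by its levels in IP + LC. The largest change was in Jup, which encodes plakoglobin, the catenin of desmosomes that also binds E-cadherin (chr11:100368958-100397763, minus strand). Jup was at 183, 203 and 204 CPM in the LC tumors and at 42.8, 40.1 and 67.0 CPM in the IP + LC tumors. The models were far apart, with a 3.98-fold lower level in IP + LC (log2 fold change -1.99 ± 0.25 SE, adjusted p = 0.00124) that was called under every alternative setting. Jup held 64.7%, 59.2% and 53.1% of all desmosome gene UMIs in LC and 30.9%, 29.5% and 38.8% in IP + LC, with Wilson intervals of at least 48.6% in LC and at most 45.1% in IP + LC. Plakoglobin and beta-catenin are close relatives. Jup made up 86.4%, 86.9% and 85.1% of the UMIs of the pair in LC and 66.7%, 65.4% and 70.7% in IP + LC, and these shares did not overlap.

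Dsp encodes desmoplakin, which fastens the desmosome to keratin filaments, and was at 10.2, 22.9 and 37.5 CPM in LC and at 5.70, 10.3 and 7.13 CPM in IP + LC. LC replicate 1 lay among the IP + LC tumors (log2 fold change -1.68 ± 0.45 SE, adjusted p = 0.0242), and the call was lost without LC replicate 3 or IP + LC replicate 1, with an adjusted p-value of up to 0.104. The plakophilins, plaque proteins between the cadherins and desmoplakin, were not called: the log2 fold changes were -0.57 for Pkp2 (adjusted p = 0.172), -0.27 for Pkp4 (adjusted p = 0.350) and 0.16 for Pkp3 (adjusted p = 0.801). Pkp2 and Pkp4 were called lower once LC replicate 1 was left out (adjusted p = 0.0359 and 0.0903), and Pkp2 was at -0.28 (adjusted p = 0.529) without LC replicate 3. The desmosomal cadherins did not pass the filter with all tumors. Dsg2, the desmoglein of simple epithelia and heart, had 0, 20 and 15 UMIs in LC and 5, 6 and 8 UMIs in IP + LC, and its partner Dsc2 had 1, 2 and 4 UMIs in LC and 4, 3 and 1 UMIs in IP + LC. Dsg2 without LC replicate 1 passed the filter and was called lower (log2 fold change -1.71, adjusted p = 0.003), but it was not called with no filter or without an IP + LC tumor (adjusted p of 0.165 to 0.414).

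Gap junction genes changed in both directions. Of 18 connexin genes 17 had UMIs and 4 were tested, with 2 downregulated and 1 upregulated. Of the 2 that fell, Gja5 could pass the filter only by being high in LC. Gja1, the most widely expressed connexin, was the only tested junction gene called higher in IP + LC (chr10:56377330-56402513, plus strand). It was at 33.9, 112 and 108 CPM in the LC tumors and at 227, 164 and 159 CPM in the IP + LC tumors, without overlap (2.09-fold higher, log2 fold change 1.06 ± 0.38 SE, adjusted p = 0.0677). LC replicate 1 had the lowest value, and the other 5 tumors gave an estimate of 0.73 (adjusted p = 0.00286). The call was lost without LC replicate 2 and without any one IP + LC tumor, with an adjusted p-value of up to 0.205 over the alternatives, while the estimate stayed positive in all of them (0.73 to 1.29).

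Gja4, a connexin of arterial endothelium, moved in the opposite direction, from 42.4, 57.3 and 66.0 CPM in LC to 18.5, 20.1 and 27.8 CPM in IP + LC (log2 fold change -1.36 ± 0.26 SE, adjusted p = 0.00583). Gja5, which is expressed in arterial endothelium and in the conduction system and atria of the heart, was at 8.48, 21.4 and 14.7 CPM in LC and at 4.99, 9.17 and 7.13 CPM in IP + LC (log2 fold change -1.14 ± 0.40 SE, adjusted p = 0.0617). LC replicate 1 lay among the IP + LC tumors for Gja5, and its call was kept only without LC replicate 1 among the 6 fits that left a tumor out, with an adjusted p-value of up to 0.293 over the alternatives. Gjc1, another connexin of vessels and heart, was not called (log2 fold change -0.40, adjusted p = 0.385) except without LC replicate 1 (log2 fold change -0.58, adjusted p = 0.092), and single tumors moved the estimate between -0.58 and -0.23.

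The make-up of the connexin transcripts therefore differed between the models while their sum overlapped. Gja1 supplied 20 of 69, 146 of 315 and 133 of 306 connexin UMIs in LC, or 29.0%, 46.4% and 43.5%, and 82.4%, 75.1% and 71.7% in IP + LC. The Wilson intervals reached at most 51.9% in LC and went down to 66.5% in IP + LC. Gja4 supplied 36.2%, 23.8% and 26.5% in LC and 6.72%, 9.16% and 12.5% in IP + LC. Neither share overlapped, as the plot of connexin shares by tumor shows. Endothelial markers, at 24.5% of the LC mean in the IP + LC tumors, moved with Gja4 and Gja5, and their part in these changes was not tested.

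**Figure D4:**
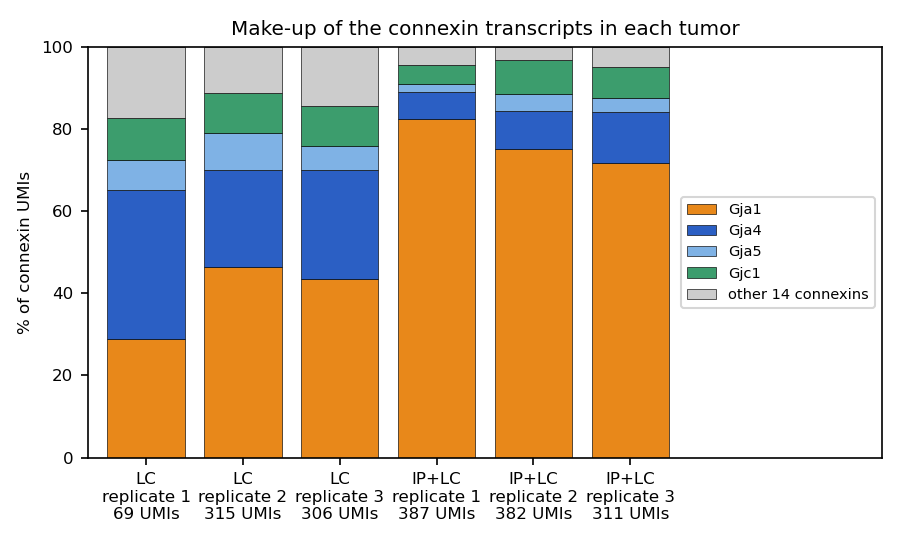
Share of all connexin UMIs (y axis, percent) held by Gja1, Gja4, Gja5, Gjc1 and the other 14 connexin genes together, as 1 stacked bar per tumor with its connexin UMIs under it. Gja1 took 29.0 to 46.4% in the LC tumors and 71.7 to 82.4% in the IP + LC tumors, and Gja4 took 23.8 to 36.2% and 6.72 to 12.5%.

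The 62 genes that did not pass the filter were low everywhere. Together they had 47, 187 and 325 UMIs in the LC tumors and 86, 115 and 80 UMIs in the IP + LC tumors, and no single gene exceeded 35 UMIs in a library. Of the 59 with a UMI, the CPM of the models did not overlap in 8 that were lower in IP + LC (13.6%; Cadm4, Cdh2, Cdh16, Cdh26, Cldn8, Cldn23, Gjb1 and Gjb6) and in 3 that were higher (5.08%; Cdh23, Cldn2 and Cldn6), compared with 6.07% and 2.22% of the 18183 genes of the whole table that had a UMI and did not pass the filter. Most of these levels stand for a few UMIs. In the fit with no filter 10 of the 59 were called (16.9%), compared with 4.39% of the 18183: Cadm2, Cdh6, Cdh9, Cdh16, Cldn8, Cldn23, Ctnna3, Gjb1 and Gjb6 lower and Cdh23 higher. Gjb6, a connexin of stratified and airway epithelia, had 4, 11 and 15 UMIs in LC and 2, 0 and 2 in IP + LC. Cldn23 had 2, 8 and 9 UMIs in LC and 1, 1 and 0 in IP + LC. In the opposite direction, Cdh23, a cadherin of sensory hair cells, had none in LC and 2, 8 and 1 UMIs in IP + LC, and Cldn2, a pore-forming claudin, had 0, 2 and 2 UMIs in LC and 4, 7 and 3 in IP + LC. With a tumor left out the filter let some of these genes through. Gjb6 was called lower without LC replicate 1 (log2 fold change -3.43, adjusted p = 0.000631) and without each IP + LC tumor (adjusted p up to 0.0436). Cldn8, a barrier claudin with 5, 7 and 11 UMIs in LC and 2, 5 and 0 in IP + LC, was called lower without LC replicate 2 or IP + LC replicate 2 or 3 but not without IP + LC replicate 1 (adjusted p = 0.137). Marveld3, a membrane protein related to occludin (log2 fold change -1.88, adjusted p = 0.00464), and the cadherin gene Cdh6 (log2 fold change -2.14, adjusted p = 0.00417) were called lower without LC replicate 1, and neither was called without an IP + LC tumor.

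The upstream sequences of 3 genes are given because these genes moved in different ways (Epcam and Jup lower, Gja1 higher) and because one carries the E-box recognized by the SNAI and ZEB repressors and the others do not. Each is the 250 bases before the RefSeq start of transcription in GRCm38.p6, written 5′ to 3′ on the strand of the gene. Capitals mark E-boxes (CAGGTG or CACCTG) and the AP-1 element (TGAGTCA or TGACTCA). Epcam (chr17:87635729-87635978, plus strand) has E-boxes that begin 187 and 19 bases before the start. Gja1 (chr10:56377050-56377299, plus strand) has an AP-1 element that begins 19 bases before the start and no E-box, and Jup (chr11:100397791-100398040, minus strand) has neither in these bases.
Epcam: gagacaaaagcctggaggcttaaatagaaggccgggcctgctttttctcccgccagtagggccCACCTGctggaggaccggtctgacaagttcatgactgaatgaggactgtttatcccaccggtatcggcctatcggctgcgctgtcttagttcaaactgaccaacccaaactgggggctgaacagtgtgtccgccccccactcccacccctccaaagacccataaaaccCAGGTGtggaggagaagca
Gja1: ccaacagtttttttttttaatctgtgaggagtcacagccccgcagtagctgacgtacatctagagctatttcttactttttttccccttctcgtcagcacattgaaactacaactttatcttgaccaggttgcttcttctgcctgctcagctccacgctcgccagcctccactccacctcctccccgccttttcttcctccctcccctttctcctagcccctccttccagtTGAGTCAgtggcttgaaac
Jup: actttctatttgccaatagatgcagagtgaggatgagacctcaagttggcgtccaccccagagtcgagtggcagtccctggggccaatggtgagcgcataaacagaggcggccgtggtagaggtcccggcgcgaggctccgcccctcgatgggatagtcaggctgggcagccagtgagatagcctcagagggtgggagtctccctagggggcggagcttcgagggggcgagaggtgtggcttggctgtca
A promoter of 300 bases (250 before and 50 after the start) was given for 64 of the 98 genes. An E-box of either strand lay in 20 of these (31.3%), compared with 22.6% of all 27025 genes with a promoter. It lay in 7 of 17 genes called lower (Cldn3, Cldn7, Dsp, Epcam, F11r, Ocln and Tjp3) and in 2 of the 9 other tested genes (Nectin2 and Pkp4). The AP-1 element lay in 4 of the 64 (6.25%), 3 of them tested (Cldn15, F11r and Gja1), and in 5.95% of all genes. These are matches of letters, and binding was not measured.

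Transcription factors that act on junction genes moved in both directions. Of 9 EMT factors 8 were tested, and 4 were upregulated and none downregulated, with a median log2 fold change of 0.87. Snai1 and Snai2, repressors of Cdh1, had log2 fold changes of 1.03 (adjusted p = 0.0389) and 1.35 (adjusted p = 0.0131). Snai2 was at 6.79, 19.1 and 13.8 CPM in LC and at 42.0, 37.8 and 31.4 CPM in IP + LC, without overlap. Twist1 and Twist2, basic helix-loop-helix factors of mesenchyme, had log2 fold changes of 2.52 (adjusted p = 0.00846) and 1.86 (adjusted p = 0.023), and Twist1 rested on 3, 1 and 3 UMIs in LC against 24, 22 and 16 in IP + LC. Zeb1 and Zeb2, which also repress Cdh1, were not called (log2 fold changes -0.65 and 0.34). Prrx1 was called higher as well, and Zeb1 and Tcf4 lower, without LC replicate 1. Snai1 lost its call without LC replicate 3 and without IP + LC replicate 2, and Twist2 without IP + LC replicate 2. Among 18 factors and splicing regulators of epithelial identity, 9 were tested, 7 were downregulated and none upregulated (median -1.48). The 7 were 77.8% of those tested, while 19.6% of all tested genes were called lower. On the log2 scale Grhl2, an activator of Cdh1 and claudin genes, fell by 2.01 (adjusted p = 0.0155), Foxa1 by 2.05 (adjusted p = 0.00563), Elf5 by 2.52 (adjusted p = 0.00633) and Esrp1, an epithelial splicing regulator, by 1.48 (adjusted p = 0.0361). Grhl2, Elf5, Foxa1, Foxa2 and Nkx2-1 kept their calls with each tumor left out. Nkx2-1 and the Foxa factors are also identity factors of normal lung epithelium, whose markers were lower in these tumors.

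The polarity complexes position junctions along the cell. Of 40 polarity and scaffold genes 37 were tested, 13 were downregulated and 5 upregulated (median -0.45). The core members of the Crumbs complex, which marks the apical side, fell: Crb3 by 1.01, Mpp5 by 0.92 and Patj by 1.56 on the log2 scale (adjusted p = 0.033, 0.0923 and 0.00983). Prkcz, a kinase of the Par complex, fell by 1.73 (adjusted p = 0.0113), and Pard6b and Pard6g fell by 1.09 and 2.07. Pard6g overlapped between the models, with 3 UMIs in LC replicate 1. Prkci, also a kinase of this complex, had a higher LC mean than Prkcz (48.1 against 19.0 CPM) and was not called (-0.17). Pard6a was not called. Pard3 was higher in every IP + LC tumor than in any LC tumor but was not called (0.51, adjusted p = 0.115). It was called higher without LC replicate 1 or 3 and with library size alone. In the basolateral Scribble module, Scrib (log2 fold change 0.70, adjusted p = 0.0794) and Dlg5, a relative of its partner Dlg1 (0.82, adjusted p = 0.0718), were called higher, and Llgl2 (-1.09, adjusted p = 0.037) and Dlg3 (-1.14, adjusted p = 0.0291) lower. Dlg1 (0.07) and Llgl1 (0.66, adjusted p = 0.137) of the same module were not called. Vcl, which encodes vinculin at the actin link, had 0, 17 and 17 UMIs in LC and 34, 56 and 51 UMIs in IP + LC (log2 fold change 1.54, adjusted p = 0.0469). Without LC replicate 1, 26 of 38 genes of this list were called, 18 lower and 8 higher, beside 57.0% of all genes, but without IP + LC replicate 2 the calls fell to 3 lower (Jam2, Patj and Prkcz) and none higher, beside 19.2% of all genes. With library size alone 10 were called lower and 8 higher, beside 16.0% and 22.4% of all genes.

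**Figure D5:**
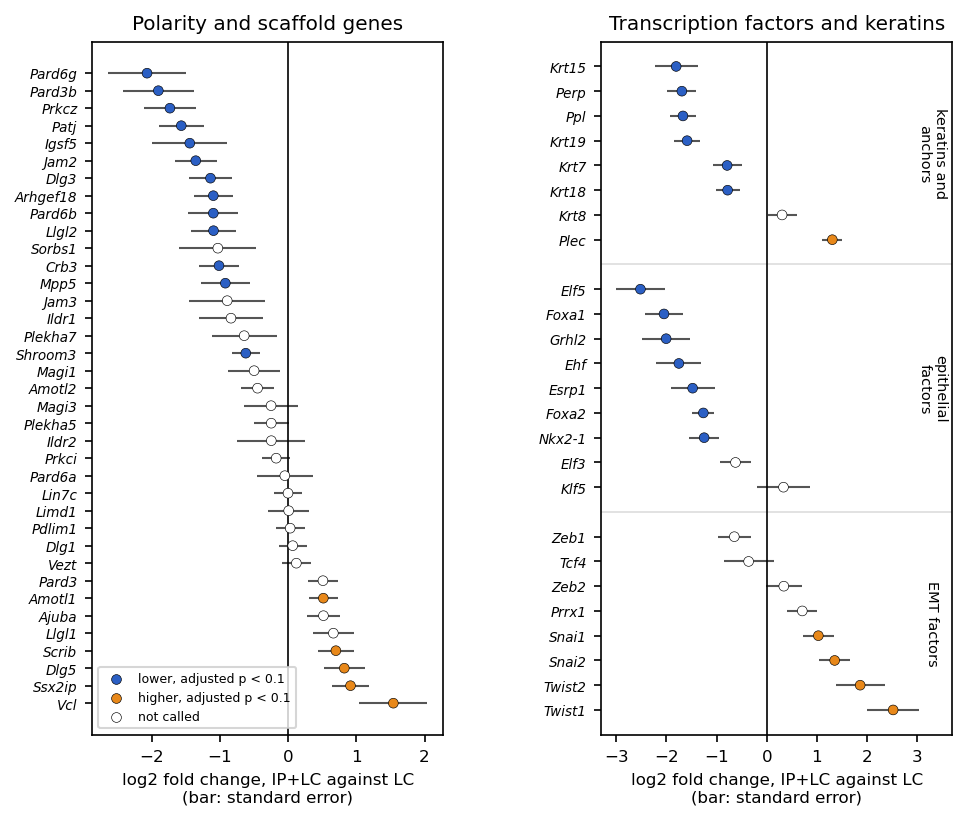
Fitted log2 fold change, IP + LC against LC (x axes), with standard error bars for the 37 tested polarity and scaffold genes (left) and for tested keratins and anchors, epithelial factors and EMT factors (right). Blue points were called lower, orange higher and white not called; Snai1, Snai2, Twist1, Twist2, Plec and Vcl lie on the higher side, and the epithelial factors called lie on the lower side.

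Keratins and the proteins that anchor desmosomes to them gave 6 downregulated and 1 upregulated gene of 8 tested, from a list of 12 (median -1.19). These were 75% and 12.5% of those tested, beside 19.6% and 16.8% of all tested genes. Krt19, a keratin of simple epithelia, fell by 1.59 on the log2 scale (adjusted p = 0.00336), Perp, a desmosomal membrane protein, by 1.69 (adjusted p = 0.00386) and Ppl, the periplakin gene, by 1.67 (adjusted p = 0.00303). Krt8 and Krt18 form filaments as obligate partners, and they differed: Krt18 was downregulated (log2 fold change -0.78, adjusted p = 0.0409), while Krt8, at 251, 144 and 110.0 CPM in LC and at 219, 201 and 201 CPM in IP + LC, was not called (log2 fold change 0.31, adjusted p = 0.463) except without LC replicate 1, where it was higher. Plec, which encodes the filament linker plectin of many cell types, was upregulated from 89.9, 113 and 114 CPM in LC to 274, 274 and 249 CPM in IP + LC (log2 fold change 1.31, adjusted p = 0.00248). The calls of Krt19, Krt15, Perp, Ppl and Plec were kept with each tumor left out, and that of Krt18 was lost without LC replicate 2 or 3 or IP + LC replicate 1 or 2.

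Of 16 genes tested for enzymes that cleave or phosphorylate junction proteins and for their inhibitors, out of 17 listed, 5 were downregulated and 4 upregulated. These were 31.2% and 25% of those tested, beside 19.6% and 16.8% of all tested genes. Mmp14, a membrane-bound matrix metalloproteinase, rose from 30.5, 50.4 and 74.9 CPM in LC to 227, 306 and 238 CPM in IP + LC (4.77-fold, log2 fold change 2.25 ± 0.31 SE, adjusted p = 0.00175). Adam17, a sheddase that cleaves membrane proteins, rose from 44.1, 30.6 and 36.7 CPM to 71.3, 76.2 and 74.9 CPM (log2 fold change 1.01, adjusted p = 0.00864). The epithelial serine proteases Prss8, St14 and Tmprss2 fell by 1.91, 0.90 and 1.62, and their inhibitor Spint2 fell by 1.73. Not called were Adam10, another sheddase (0.50, adjusted p = 0.106), Mmp9, a secreted metalloproteinase (1.13, adjusted p = 0.142), and Spint1, a relative of Spint2 (-0.18, adjusted p = 0.672). The kinases Src and Fer, which phosphorylate catenins, were called higher (log2 fold changes 0.69 and 0.82), and Egfr, a receptor kinase, was called lower (-0.99, adjusted p = 0.0983). The kinases Yes1 (-0.65), Met (-0.32), Erbb2 (-0.56) and Erbb3 (-0.65) were not called. Mmp14, Adam17, Prss8, Spint2 and Tmprss2 were called with each tumor left out; 15 of the 16 genes were called without LC replicate 1, beside 57.0% of all genes, and those 5 alone without LC replicate 2 or IP + LC replicate 1, beside 22.4% and 22.6%. Among 8 mesenchymal filament and matrix genes, Vim (0.74), Fn1 (1.06) and Col1a1 (1.42) were called higher and Acta2 (-2.03) and Tagln (-1.77), which also mark smooth muscle, lower. Col1a1, Acta2 and Tagln were the 3 genes of this list still called without LC replicate 2 and without IP + LC replicate 2 or 3.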

How the data were processed

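RNA of 3 tumors of the LC model and 3 of the IP + LC model was sequenced from poly(A)-primed libraries with UMIs of 10 bases. Per the labels, the authors deposited UMI counts per gene, and their notes name UMI-tools 1.1.1, Trim Galore 0.6.7, HISAT2 2.2.1, GRCm38 and featureCounts 2.0.1. Whether counting used strand is not given in the sources used here. UMI counts are not normalized, and reads near transcript ends cannot separate isoforms. Ctnnb1 and Dsp share 14.6% and 5.17% of their exon bases with genes on the opposite strand, and Ctnnd1, Gja5 and Cgn share 54.0%, 12.2% and 11.6% of their 81-base words with other genes, so their counts are uncertain (GENCODE M21).

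The counts were filtered (filterByExpr, minimum count 10) and TMM-normalized, and 11240 genes were tested with the quasi-likelihood test of edgeR 4.0.16 (R 4.3.3) with Benjamini-Hochberg adjustment. Groups came from the labels. CPM are UMI counts scaled to the library total times its TMM factor. Alternatives used DESeq2 1.42.0, limma 3.58.1, other scalings, filters, limits and thinning. On data simulated from this comparison the test recovered 188 of 200 genes changed by 2 on the log2 scale among 10975, with 32 false calls. These false calls were a larger share of the calls than the limit of 0.1 aims at. The simulation changed few genes by a large amount, whereas 36.4% of genes were called here and the junction median was -0.84. Recovery of such smaller changes was not measured. The counts limit precision by total UMIs (592733 to 1631066), and Wilson intervals and the 3-UMI floor cover counting error only.

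The members and lists were chosen with earlier results of these data known. All tested members were compared, and the values of 1 of them are not reported here. Tested core members were otherwise named with a fold change. Values for every tumor were given for called members among the 3 largest falls and rises per junction type, and for Cdh1, Epcam, Cldn18, Cdh2, Gja1, Jup and Ctnnb1. Some other members were given them as well. Further genes of the lists were named for illustration after their values were seen, and the counts for those lists without single tumors or with other scalings, the sums without LC replicate 1 or Jup, the counts over genes past the filter level in every tumor and the shares with Cldn4, Cldn5 and Cdh5 were chosen after seeing the data. The promoters come from RefSeq (GRCm38.p6), and the AP-1 search was added after the sequences were seen.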

Additional observations from a re-analysis of the deposited data

How the results depend on the processing

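The test was repeated with 10 other settings and with each tumor left out. The number of junction genes called was 22 with all tumors and ranged from 11 to 35 with a tumor left out: the lowest counts came from leaving out IP + LC replicate 1 (11) or 2 (13) and the highest from leaving out LC replicate 1 (35), and all genes called ranged from 2265 to 6691 (4088 with all tumors). Thinned to 592733 UMIs per library, 2357 genes were called. The junction genes tested had a median log2 fold change between -1.16 and -0.65 with a tumor left out, that of desmosome genes from -1.19 to -0.28 and that of gap junction genes from -1.33 to -0.53. The adherens median was -1.13 with no filter, and the gap median, over 4 genes or fewer, was -0.16 with at least 10 UMIs in every library and -0.063 after thinning. With no filter the median of all genes moved by -0.31. Of 558 single-gene values under alternatives, 484 kept direction and call, 56 lost the call, 12 gained it and 6 reversed: Afdn was 0.10 with library size alone and 0.051 with no filter and ranged from -0.25 to 0.11 with a tumor left out (above 0 without LC or IP + LC replicate 3), and Pkp3 ranged from -0.15 to 0.38 (below 0 without LC replicate 3 or IP + LC replicate 2). None of these was called, and the cause was not tested. The replicate numbers do not mark pairs: deviations of same-numbered tumors correlated at 0.02, -0.10 and 0.09. With a replicate block 19 junction genes were called, without Gja1, Tjp1 and Tjp3, beside 30.3% of all tested genes (36.4% with no block). The 62 genes below the filter had few UMIs, and with no filter 10 of them were called, 9 lower and 1 higher.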

Other observations

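Among the junction genes below the filter, several adhesion genes of other tissues had most of their UMIs in a single LC tumor. Cadm2, which spans 965 kb, had 1, 5 and 35 UMIs in LC replicates 1 to 3 and 4, 11 and 4 UMIs in the IP + LC tumors. Ctnna3, the alpha-catenin of heart muscle, which spans 1574 kb, had 0, 4 and 16 UMIs in LC and 0, 1 and 4 in IP + LC. The cadherins Cdh7, Cdh9, Cdh10 and Cdh12 had 17, 14, 15 and 14 UMIs in LC replicate 3 and at most 5 in any other tumor. These genes were chosen after their values were seen. With no filter on low counts Cadm2, Ctnna3 and Cdh9 were called lower in IP + LC (adjusted p = 0.0431, 0.0853 and 0.025), and Cdh7, Cdh10 and Cdh12 were not called.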
